A study of Homo sapiens with 10 samples.

Results

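The genes described here are 28 genes of cholesterol and fatty acid synthesis, measured by RNA-seq in 10 libraries of A549 cells, a human lung adenocarcinoma line. They were taken by symbol from the 25538 genes of the deposited count table. All 28 were present, each on 1 line, and all 28 were among the 19433 genes that passed the filter on low counts. By role they are 17 enzymes of the sterol branch (HMGCS1, MVK, PMVK, MVD, IDI1, FDPS, FDFT1, SQLE, LSS, CYP51A1, TM7SF2, MSMO1, NSDHL, HSD17B7, EBP, SC5D and DHCR7), 7 enzymes of fatty acid synthesis (SCD, FASN, ACACA, ACLY, FADS1, FADS2 and ELOVL6), and 4 regulators and transport genes (INSIG1, SREBF1, SREBF2 and STARD4).

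Cells were transiently transfected for 48 h with 1 microgram of a plasmid that carried either GFP alone or EP300 fused in frame to EGFP, in medium with charcoal-stripped serum. They then received ethanol (EtOH, the vehicle) or 100 nM dexamethasone (Dex, a synthetic ligand of the glucocorticoid receptor) for 1 h, and cells with GFP fluorescence were sorted after fixation in ethanol. Control cells gave 3 libraries with vehicle (GFP EtOH) and 3 with hormone (GFP Dex), and cells with EP300 gave 2 of each (P300 EtOH and P300 Dex). The controls share the transfection, the serum and the sort. Libraries are named by group and by the number in their label. The labels do not say whether libraries of a group are separate cultures, and a p-value here covers only their spread, perhaps a technical one.

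Cells make cholesterol from acetyl-CoA through mevalonate, squalene and lanosterol, and fatty acids from acetyl-CoA through malonyl-CoA. Transcription of most of these enzymes is driven by SREBP-2 and SREBP-1, the products of SREBF2 and SREBF1, which are held in the endoplasmic reticulum by the INSIG proteins when sterol is plentiful and are released to the nucleus when it runs low. SREBP binds sterol regulatory elements beside NF-Y and Sp1 sites and recruits acetyltransferases, EP300 and its paralog CREBBP among them. EP300 itself uses acetyl-CoA, the product of ACLY, to acetylate histones and other proteins. In lung epithelium, fatty acid synthesis also supplies the lipid of surfactant.

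The promoters of 4 genes are shown as examples, those of the regulators SREBF2 and INSIG1 and of the sterol enzymes HMGCS1 and DHCR7. Each holds 300 bases around the gene's start, most of them upstream, 5′ to 3′ on the gene's own strand, from RefSeq on GRCh38.p14. Capitals mark the NF-Y box CCAAT, read as ATTGG where it lies on the other strand, and the sterol regulatory element TCACNCCAC.
SREBF2, chr22:41832855-41833154, plus strand: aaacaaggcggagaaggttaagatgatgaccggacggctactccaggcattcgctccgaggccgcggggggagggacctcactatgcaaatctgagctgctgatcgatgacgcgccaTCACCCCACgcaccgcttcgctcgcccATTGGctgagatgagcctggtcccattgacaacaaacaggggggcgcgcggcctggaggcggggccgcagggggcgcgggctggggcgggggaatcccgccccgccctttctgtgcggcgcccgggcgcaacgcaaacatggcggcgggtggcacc
INSIG1, chr7:155297628-155297927, plus strand: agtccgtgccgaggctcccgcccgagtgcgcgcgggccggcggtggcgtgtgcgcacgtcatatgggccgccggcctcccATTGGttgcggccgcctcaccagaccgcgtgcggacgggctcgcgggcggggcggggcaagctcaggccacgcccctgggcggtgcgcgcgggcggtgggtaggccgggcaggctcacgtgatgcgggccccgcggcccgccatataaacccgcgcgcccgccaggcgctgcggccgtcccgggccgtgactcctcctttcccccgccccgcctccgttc
HMGCS1, chr5:43313363-43313662, minus strand: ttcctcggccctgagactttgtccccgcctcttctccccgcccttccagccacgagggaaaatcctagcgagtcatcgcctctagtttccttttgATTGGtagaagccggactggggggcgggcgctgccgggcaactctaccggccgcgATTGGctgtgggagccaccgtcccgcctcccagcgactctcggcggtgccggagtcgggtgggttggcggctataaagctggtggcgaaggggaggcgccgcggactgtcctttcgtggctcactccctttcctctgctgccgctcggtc
DHCR7, chr11:71448344-71448643, minus strand: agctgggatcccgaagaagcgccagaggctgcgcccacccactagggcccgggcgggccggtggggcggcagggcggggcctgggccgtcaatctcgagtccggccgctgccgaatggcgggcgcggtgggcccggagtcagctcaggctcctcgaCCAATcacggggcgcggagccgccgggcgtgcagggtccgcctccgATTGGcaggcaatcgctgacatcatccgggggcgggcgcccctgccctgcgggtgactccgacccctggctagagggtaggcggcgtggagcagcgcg
Of the 28 genes, 25 had a promoter in the RefSeq table, and FASN, FDFT1 and SQLE did not. Both strands were searched for 5 motifs, none of which lies inside another. CCAAT was in 17 of the 25 promoters, or 68%, against 34.61% of all 35116 promoters and 34.69% of the 22199 of coding genes. The Sp1 box GGGCGG was in 23 of 25, or 92%, against 44.95% of all promoters and 56.28% of those of coding genes. The sterol element TCACNCCAC was in 1 of 25, that of SREBF2 at position -133 from the start, against 1.128% of all promoters. The E-box CACGTG was in 3 of 25 (INSIG1, SC5D and LSS), against 7.256%. The full palindromic glucocorticoid response element was in 0 of 25 and in 1 of all promoters. These matches describe the letters of a window and are not binding sites. Only these strings were searched in 300 bases, so a missing match does not show that a promoter lacks the element.

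Several libraries stood apart before any of the 28 genes was considered. Totals ran from 9215550 to 13122367 counts except in P300 EtOH 2, which held 2278717 counts and had 11861 genes at 0. EP300 took 0.0271% to 0.0386% of counts in the 6 GFP libraries, 28.6% in P300 EtOH 1, 28.8% in P300 Dex 1, 13.4% in P300 EtOH 2 and 2.42% in P300 Dex 2. EP300 was thus far above its GFP level in every library labelled P300, but not to one extent. GFP EtOH 2 and GFP Dex 2 held 4.24% and 5.32% of counts in ribosomal RNA genes, against 0.493% to 0.813% in the other GFP libraries. The common dispersion, edgeR's measure of spread between libraries of a group, was 0.0596 over the GFP libraries and 0.596 over the P300 libraries.

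The epithelial markers EPCAM, KRT7, KRT8, KRT18 and CDH1 were all detected in every library, summing to 11404 to 17761 CPM (counts per 1000000 of the scaled library size) in GFP and 6382 to 22163 CPM in P300. The 6 fibroblast markers summed to 13.8 to 28.99 CPM in GFP and 53.2 to 81.4 CPM in P300, most of it COL1A1, and DCN was at 0 in 4 of the GFP and 2 of the P300 libraries. The 2 endothelial markers in the table, VWF and CDH5, summed to 0.841 to 2.07 CPM in GFP and 3.25 to 22.8 CPM in P300. The 3 leukocyte markers in the table summed to 1.07 to 2.39 CPM in GFP and 1.34 to 6.10 CPM in P300, and PTPRC was at 0 in 4 of the GFP and 3 of the P300 libraries. The part of these shifts in the results below was not tested. A lower level in such bulk RNA can come from fewer cells that express a gene or from less RNA per cell, and these cannot be told apart.

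In vehicle-treated control cells 3 fatty acid enzymes, ACLY, SCD and FASN, had the highest levels of the 28. Per kilobase of annotated exon, ACLY, which makes cytosolic acetyl-CoA from citrate, was at 137 ± 7.11 CPM per kb (SD, n = 3). SCD, the stearoyl-CoA desaturase, was at 112 ± 22.1 CPM per kb, and FASN, the fatty acid synthase, at 101.5 ± 29.7 CPM per kb (SD, n = 3 each). The ranges of these 3 genes overlapped, so their order is not resolved. SREBF1 followed at 52.0 ± 28.3 and FADS2, a fatty acid desaturase, at 47.3 ± 21.8 CPM per kb (SD, n = 3 each), again with overlapping ranges. Of the sterol branch, HMGCS1, the cytosolic HMG-CoA synthase that commits acetyl-CoA to mevalonate, was the most abundant per length at 31.5 ± 9.32 CPM per kb (SD, n = 3). HSD17B7, a ketosteroid reductase of the late sterol steps, was at 1.26 ± 0.24 and CYP51A1, the lanosterol demethylase, at 1.01 ± 0.18 CPM per kb (SD, n = 3 each), the lowest of the 28. By group mean ACLY was first in all 4 groups, followed by SCD and FASN in either order. In P300 Dex the FASN libraries lay at 28.7 and 175.8 CPM per kb, below and above the 114 to 151 of ACLY. Their order there is not resolved.

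The level of CYP51A1 is uncertain, since its exons overlap several other annotated genes on either strand. Summed over those genes, the overlaps come to 86.0% of its exon length, with a base shared by several of them counted for each. The strand setting of the counting is not given in the sources used here. Smaller overlaps touch FDPS (18.6% of exon length, with RUSC1-AS1), HMGCS1 (15.0%, with an unnamed antisense gene) and IDI1 (14.8%, with IDI2-AS1). FDPS also has 8 named pseudogenes, CYP51A1 has 3, HSD17B7 has 2, and SCD and FADS2 have 1 each, and FADS1 and FADS2 overlap each other, so that reads could have been split or lost. Exon lengths came from GENCODE 29 on GRCh38, while the submitters' processing notes name GRCh37.

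The plot of relative levels shows all 28 genes in all 10 libraries. Below, the genes are taken by role, with levels in CPM in libraries 1, 2 and 3 of the GFP groups and 1 and 2 of the P300 groups.

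**Figure D1:**
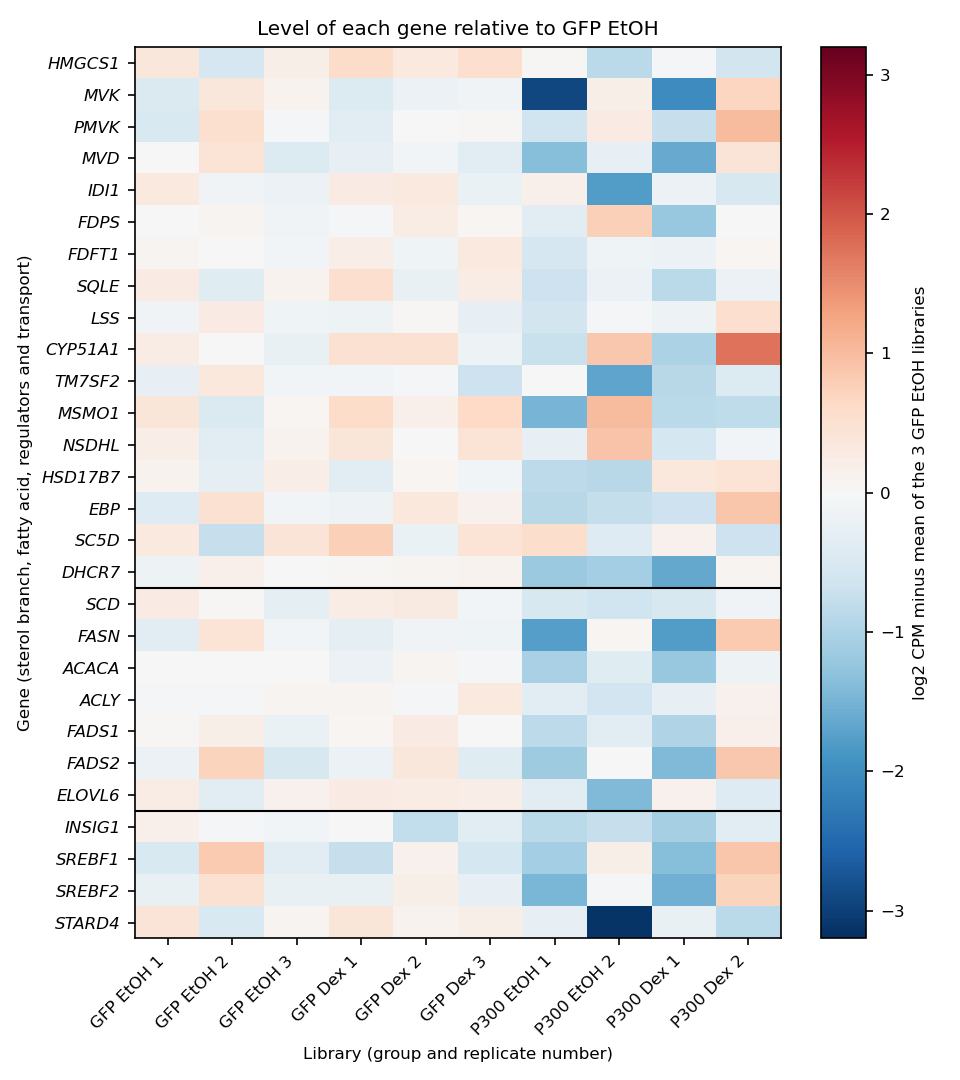
Level of each of the 28 genes (rows, with lines between the sterol branch, the fatty acid enzymes and the regulators and transport genes) in each library (columns), as log2 CPM minus the mean log2 CPM of the 3 GFP EtOH libraries, from blue (lower) to red (higher). P300 EtOH 1 and P300 Dex 1 are mostly blue. Both lie below all 6 GFP libraries for 19 of 28 genes, where 26.9% of all genes do. P300 Dex 2 lies above all 6 GFP libraries for 10 of 28, where 31.1% of all genes do, with CYP51A1 the reddest at 1.74.

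SREBF1 was at 271, 679 and 302 CPM in GFP EtOH and at 229, 422 and 258 CPM in GFP Dex. It was at 179 and 436 CPM in P300 EtOH and at 148 and 711 CPM in P300 Dex. In every group the library of number 2 was the highest, and no pair of groups was separated. SREBF2, which encodes the main activator of the sterol branch, was at 127, 213 and 128 CPM in GFP EtOH and 129, 171 and 127 CPM in GFP Dex. It was at 54.5 and 147 CPM in P300 EtOH and at 52.2 and 248 CPM in P300 Dex. Both P300 libraries of number 1 lay below every GFP library, whereas P300 Dex 2 lay above every one.

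INSIG1, which retains SREBP in the endoplasmic reticulum and is itself an SREBP target, was at 94.8, 80.3 and 78.8 CPM in GFP EtOH and 85.4, 48.9 and 65.0 CPM in GFP Dex. It was at 46.0 and 50.1 CPM in P300 EtOH and 40.6 and 66.1 CPM in P300 Dex. Both P300 EtOH libraries were below the 3 GFP EtOH libraries, and the 2 Dex groups overlapped. STARD4, a cytosolic sterol carrier named here after its values were seen, was at 53.9, 29.2 and 43.0 CPM in GFP EtOH and 53.2, 44.2 and 46.4 CPM in GFP Dex. It was at 33.9 and 4.47 CPM in P300 EtOH, the second of these from 10 counts, and at 34.3 and 22.2 CPM in P300 Dex. Both P300 Dex libraries were below the GFP Dex libraries.

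Of the sterol enzymes, HMGCS1 was at 183, 99.2 and 162 CPM in GFP EtOH and at 216, 179 and 209 CPM in GFP Dex. It was at 147 and 79.2 CPM in P300 EtOH and 141 and 95.4 CPM in P300 Dex. GFP Dex was higher than GFP EtOH at each number, with 1 GFP EtOH library above the lowest GFP Dex library, and both P300 Dex libraries were below all 3 GFP Dex libraries. DHCR7, which reduces dehydrocholesterol to cholesterol in the last step, was at 51.1, 63.9 and 56.1 CPM in GFP EtOH and 57.9, 59.9 and 61.0 CPM in GFP Dex. It was at 24.8 and 26.8 CPM in P300 EtOH and at 18.1 and 60.7 CPM in P300 Dex. The P300 EtOH libraries were well under every GFP library, while the 2 P300 Dex libraries lay far apart.

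MSMO1, the methylsterol monooxygenase, was at 26.3, 14.5 and 20.7 CPM in GFP EtOH and 30.3, 22.2 and 31.3 CPM in GFP Dex. It was at 6.99 and 40.7 CPM in P300 EtOH, the lowest and the highest of the 10 libraries, and at 10.8 and 11.3 CPM in P300 Dex. HSD17B7 was at 6.42, 4.70 and 6.88 CPM in GFP EtOH and 4.66, 6.22 and 5.52 CPM in GFP Dex. It was at 3.22 and 3.13 CPM in P300 EtOH, from 29 and 7 counts, and at 7.47 and 8.02 CPM in P300 Dex, from 71 and 74 counts. Of all 10 libraries, those of P300 EtOH were the lowest and those of P300 Dex the highest for this gene.

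Among the fatty acid enzymes, FASN was at 720, 1259 and 872 CPM in GFP EtOH and 738, 849 and 840 CPM in GFP Dex. It was at 270 and 970 CPM in P300 EtOH and at 269 and 1646 CPM in P300 Dex. The lowest and the highest of the 10 libraries were thus both P300 Dex libraries. FADS2 had the same layout, at 431, 794 and 339 CPM in GFP EtOH, 427, 628 and 373 CPM in GFP Dex, 221 and 493 CPM in P300 EtOH, and 184 and 891 CPM in P300 Dex. SCD varied less, at 715, 612 and 479 CPM in GFP EtOH and 698, 723 and 558 CPM in GFP Dex. It was at 420 and 380 CPM in P300 EtOH and 414 and 551 CPM in P300 Dex, below the GFP libraries of the same treatment in all 4 cases.

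**Figure D2:**
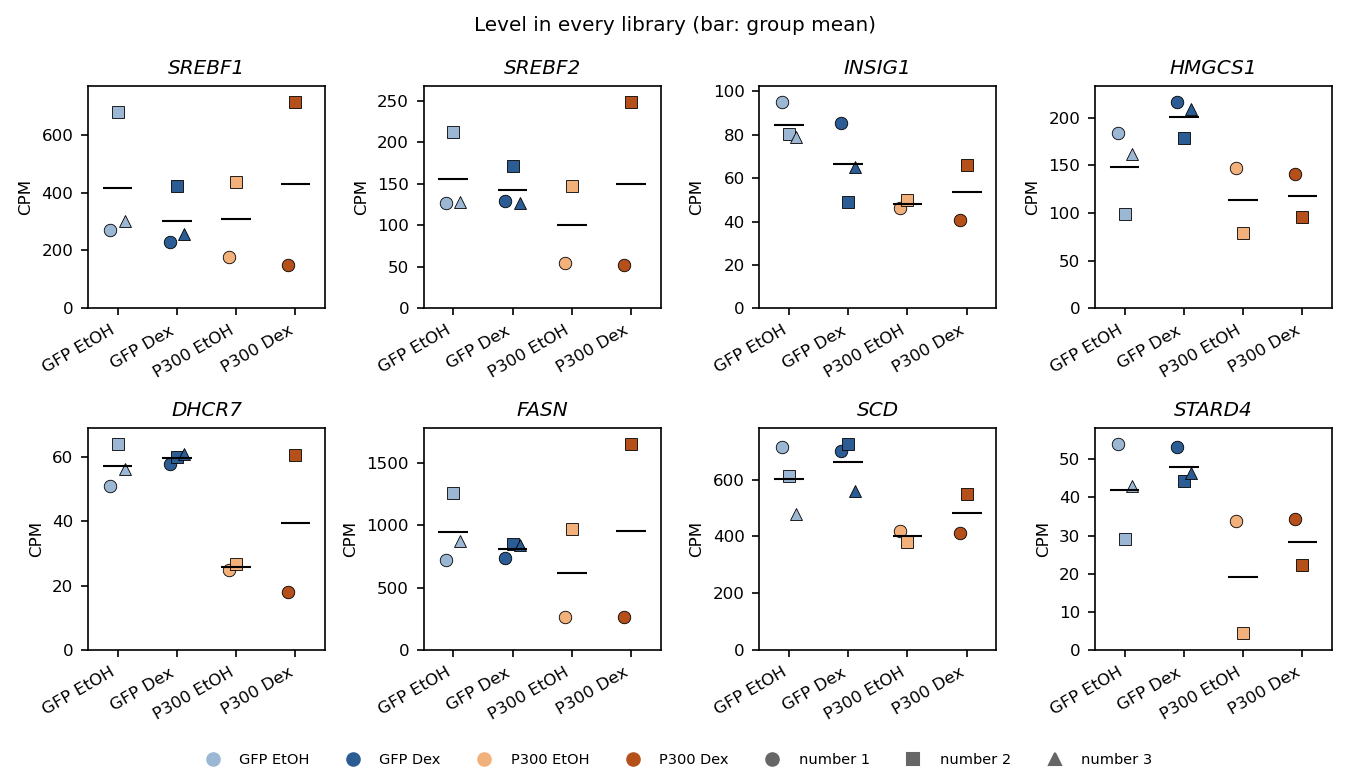
Level in CPM (vertical axes, from 0) of 8 of the genes in every library of the 4 groups, with the group mean as a bar and the marker shape giving the replicate number. SREBF1, SREBF2 and FASN are high in the libraries of number 2 and reach 711, 248 and 1646 CPM in P300 Dex 2, whereas DHCR7 and SCD are lower in both P300 EtOH libraries than in any GFP EtOH library.

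The remaining genes are given by group means. The highest of them, ACLY, was at 717 ± 37.1 CPM in GFP EtOH and 786 ± 96.2 CPM in GFP Dex (SD, n = 3 each), and at 516 ± 69.5 CPM in P300 EtOH and 692 ± 138 CPM in P300 Dex (SD, n = 2 each). ACACA, the acetyl-CoA carboxylase, was at 306 ± 2.00 CPM in GFP EtOH (SD, n = 3) and at 192 ± 58.6 CPM in P300 EtOH (SD, n = 2). FADS1, the desaturase next to FADS2, was at 351 ± 47.0 CPM in GFP EtOH (SD, n = 3) and 234 ± 54.4 CPM in P300 EtOH (SD, n = 2). Squalene synthesis and epoxidation, by FDFT1 and SQLE, were at 94.4 ± 5.52 and 90.4 ± 19.7 CPM in GFP EtOH (SD, n = 3). They were at 75.2 ± 14.4 and 67.0 ± 15.3 CPM in P300 EtOH (SD, n = 2). The early enzymes MVK, PMVK and MVD, which turn mevalonate into isopentenyl diphosphate, were at 14.1 to 22.2 CPM on average in GFP EtOH and 8.66 to 17.5 CPM in P300 EtOH.

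Other genes of these steps had lower means in P300 EtOH as well. IDI1, the isopentenyl diphosphate isomerase, was at 42.6 ± 8.41 CPM in GFP EtOH (SD, n = 3) and at 47.5 and 12.1 CPM in P300 EtOH, the second of these from 27 counts. LSS, the lanosterol synthase, was at 59.8 ± 9.76 CPM in GFP EtOH (SD, n = 3) and 47.8 ± 12.2 CPM in P300 EtOH (SD, n = 2), and TM7SF2, a sterol reductase, at 7.70 ± 1.72 and 4.89 ± 3.75 CPM in the same groups. EBP, the sterol isomerase, was at 44.1 ± 14.5 and 24.0 ± 1.47 CPM, and ELOVL6, a fatty acid elongase, at 23.2 ± 4.81 and 13.3 ± 6.85 CPM. Only for EBP did these groups not overlap.

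Several sterol genes had higher means in P300 EtOH than in GFP EtOH, with wide spread. FDPS, the farnesyl diphosphate synthase, was at 36.3 ± 2.57 CPM in GFP EtOH (SD, n = 3) and 45.2 ± 23.4 CPM in P300 EtOH (SD, n = 2). NSDHL, a sterol dehydrogenase, was at 21.2 ± 4.17 and 28.4 ± 15.4 CPM, CYP51A1 at 3.62 ± 0.65 and 4.41 ± 3.25 CPM, and SC5D, a sterol desaturase, at 12.7 ± 4.87 and 13.3 ± 6.15 CPM. For these 4 genes and for MSMO1 the estimate for EP300 without hormone, described below, was positive. The groups overlapped for all of them.

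Summed over a role, the 7 fatty acid enzymes held 3084 to 4084 CPM in GFP EtOH and 3289 to 3674 CPM in GFP Dex. They held 1840 and 2824 CPM in P300 EtOH, below every GFP library, and 1796 and 4561 CPM in P300 Dex, one below and one above. The 17 sterol enzymes held 663 to 827 CPM in the GFP libraries, 508 and 582 CPM in P300 EtOH, and 495 and 717 CPM in P300 Dex. P300 Dex 2 alone among the P300 libraries fell within the GFP range for this sum. The 4 regulators and transport genes held 496 to 1001 CPM in GFP, 313 and 638 CPM in P300 EtOH, and 275 and 1048 CPM in P300 Dex. Both P300 libraries of number 1 were below every GFP library for this sum, and P300 Dex 2 was above every one.

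**Figure D3:**
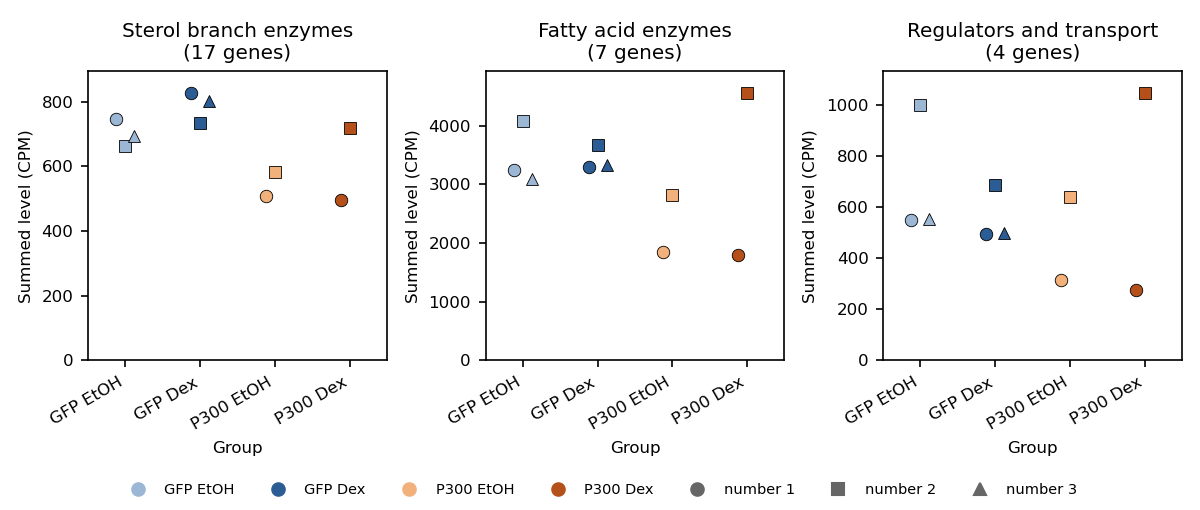
Summed CPM (vertical axes, from 0) of the 17 sterol branch enzymes, the 7 fatty acid enzymes and the 4 regulators and transport genes in each library of the 4 groups, with the marker shape giving the replicate number. P300 EtOH 1 and P300 Dex 1 are the lowest libraries in each panel, and P300 Dex 2 is the highest for the fatty acid enzymes and the regulators, at 4561 and 1048 CPM.

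The 4 comparisons that follow share groups with one another, so their estimates are not independent. In each, edgeR's quasi-likelihood test was fitted on all 19433 genes and 10 libraries, with a Benjamini-Hochberg adjusted p of 0.05 as the threshold. Estimates are log2 fold changes ± SE.

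The first asked what 1 h of Dex did in control cells. None of the 28 genes passed the test, where 0% of all genes tested passed it. This fit shares its spread with the P300 libraries, whose common dispersion was 0.596 against 0.0596 over the GFP libraries. A count of 0 here can therefore miss changes and does not show that there were none. At an unadjusted p of 0.05 the count was 0 of 28, against 113 genes or 0.581% of all, and DESeq2 and limma-voom with library weights also called 0 of 28, where they called 0.0196% and 0.458% of all genes. HMGCS1 had the smallest p of the 28, with an estimate of 0.44 ± 0.31 (edgeR adjusted p = 1). INSIG1 was at -0.35 ± 0.29 and SREBF1 at -0.46 ± 0.56 (edgeR adjusted p = 1 for both). The median of the 28 was 0.08, beside 0.00 over all genes, with 16 positive and 12 negative, where 49.7% of all genes were positive. It was 0.02 without GFP EtOH 3 and 0.03 without GFP Dex 2, beside 0.01 and 0.00 over all genes.

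These 6 libraries were also compared within replicate numbers, a pairing that rests on the labels alone. Within numbers, 9 of the 28 were higher with Dex in all 3 pairs (HMGCS1, SQLE, CYP51A1, MSMO1, NSDHL, SC5D, ACLY, FADS1 and ELOVL6), where 20.7% of all genes were. LSS, INSIG1 and SREBF1 were lower in all 3 pairs, where 17.9% of all genes were. With only these libraries in the fit and the number as a block, 0 of 28 passed, where 1.66% of all genes did. The paired estimates were then 0.48 ± 0.12 for HMGCS1 (edgeR adjusted p = 0.0819), -0.39 ± 0.10 for SREBF1 (edgeR adjusted p = 0.0922) and -0.38 ± 0.11 for INSIG1 (edgeR adjusted p = 0.143). None of these passed the threshold, and for 0 of the 28 were the Dex libraries all above or all below the EtOH libraries, where 4.14% and 4.9% of all genes were. By role, the paired estimates were positive for 11 of 17 sterol enzymes and 4 of 7 fatty acid enzymes. They were positive for 1 of 4 regulators and transport genes, beside 50.7% of all genes. The GFP libraries of number 2 were above the other GFP libraries in both treatments for FDPS, LSS, TM7SF2, EBP, FADS1, FADS2, SREBF1 and SREBF2, 8 of 28 where 19.7% of all genes were. They were below them for SQLE, NSDHL and SC5D, where 22.7% of all genes were. These are the libraries with the high share of ribosomal RNA, whose part in these levels was not tested.

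The second comparison asked what EP300 did without hormone. In the fit of all 10 libraries none of the 28 genes passed the test, where 541 genes or 2.78% of all did. EP300 itself was higher by 9.55 ± 0.98 (edgeR adjusted p = 0.00516). At an unadjusted p of 0.05 the count was 3 of 28, all lower, against 25.9% of all genes, and DESeq2 and limma-voom called 0 of 28, where they called 13.2% and 2.35% of all genes. Those 3 were DHCR7 at -1.14 ± 0.44 (edgeR adjusted p = 0.136), INSIG1 at -0.82 ± 0.33 (edgeR adjusted p = 0.151) and SCD at -0.59 ± 0.27 (edgeR adjusted p = 0.189). The median of the 28 was -0.56, beside -0.18 over all genes. Of the 28 estimates 23 were negative and 5 positive, where 42.9% of all genes had positive estimates.

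By role, all 7 fatty acid enzymes had negative estimates with a median of -0.59, as had all 4 regulators and transport genes with a median of -0.73. The sterol branch was mixed, with 12 of 17 negative and a median of -0.38. Within number 1 the median differences of the fatty acid enzymes and of the regulators and transport genes were -0.86 and -0.85, beside -0.20 over all genes. Within number 2 they were -0.59 and -0.66, beside -0.54. For the sterol branch they were -0.49 in number 1 and -0.25 in number 2. The median of all genes depended on the scaling, at -0.04 with RLE factors and -0.41 with library sizes alone, and the median of the 28 moved with it, to -0.43 and -0.77. The groups did not overlap for 9 of the 28, all lower with EP300 (FDFT1, HSD17B7, EBP, DHCR7, SCD, ACACA, ACLY, FADS1 and INSIG1), where 28.5% of all genes were separated in that direction. None was separated in the other direction, where 12.3% of all genes were.

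With only the 5 libraries compared and the replicate number as a block, 2 of the 28 passed, where 3.43% of all genes did. They were FASN, lower by a log2 fold change of -0.85 ± 0.24 (edgeR adjusted p = 0.0153), and FADS2, at -0.78 ± 0.24 (edgeR adjusted p = 0.0404). With the block on all 10 libraries neither passed, at -0.88 ± 0.44 for FASN (edgeR adjusted p = 0.227) and -0.79 ± 0.33 for FADS2 (edgeR adjusted p = 0.165). With neither change, the fit of 10 libraries gave -0.62 ± 0.65 for FASN (edgeR adjusted p = 0.585) and -0.55 ± 0.60 for FADS2 (edgeR adjusted p = 0.598). Within number 1, 26 of the 28 genes were lower with EP300, against 57.4% of all genes, and within number 2 it was 22 of 28, against 65% of all genes. The median difference over the 28 was -0.72 in number 1, beside -0.20 over all genes, but -0.53 in number 2, beside -0.54, where 13 of the 28 lay below the median of all genes. In both numbers 21 of the 28 were lower, where 41.7% of all genes were, and SC5D alone was higher in both, where 18.3% of all genes were.

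Single libraries decided several calls. Without P300 EtOH 1, the shallow P300 EtOH 2 stood alone for its group and was assumed to vary like the others. STARD4, at a log2 fold change of -3.25, IDI1, at -1.84, and ELOVL6, at -1.47, then passed (edgeR adjusted p = 0.00546, 0.0177 and 0.0426), which is 3 of 28 where 19.5% of all genes passed. The P300 Dex libraries are not compared here, but leaving either out changed the shared spread, the scaling and the set of genes that passed the filter. DHCR7 was then at a log2 fold change of -1.19 in both settings, beside -1.14 in the fit of 10 libraries. The median of the 28 was -0.36 without P300 EtOH 1, less negative than the -0.87 over all genes, and -0.81 without P300 EtOH 2, beside -0.25 over all genes.

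The third comparison asked what EP300 did in cells given Dex. None of the 28 genes passed, where 2 genes or 0.0103% of all did. At an unadjusted p of 0.05 the count was 1 of 28, against 12.7% of all genes, and DESeq2 and limma-voom called 0 of 28, where they called 3.75% and 0.242% of all genes. That gene was MSMO1 at -1.34 ± 0.61 (edgeR adjusted p = 0.392), followed by HMGCS1 at -0.77 ± 0.36 (edgeR adjusted p = 0.405). The median of the 28 was -0.34, beside 0.00 over all genes, with 18 negative and 10 positive, where 49.9% of all genes were positive. With RLE factors it was -0.24, beside 0.09 over all genes, and with library sizes alone -0.51, beside -0.19. The groups did not overlap for 6 genes that were lower with EP300 (HMGCS1, MSMO1, NSDHL, SCD, ELOVL6 and STARD4), where 18.3% of all genes were. HSD17B7 was separated in the other direction, where 14.9% of all genes were.

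The 2 pairs of this comparison differed. Within number 1, 26 of 28 genes were lower with EP300, against 57% of all genes, and within number 2 it was 12 of 28, against 51.2%. The median difference between the paired libraries was -0.86 over the 28 in number 1, beside -0.18 over all genes, and 0.11 in number 2, beside -0.01. Leaving out P300 Dex 1 brought the fitted median of the 28 to -0.02, and leaving out P300 Dex 2 brought it to -0.89. With only these 5 libraries and the replicate block 0 of 28 passed, where 0.856% of all genes did. Without P300 Dex 2, P300 Dex 1 stood alone for its group and was assumed to vary like the others. DHCR7 then passed at a log2 fold change of -1.78 (edgeR adjusted p = 0.0296), 1 of 28 where 2.26% of all genes passed.

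The last comparisons asked what Dex did in cells with EP300, and whether this differed from its effect in control cells. With EP300, none of the 28 passed, where 0% of all genes did. At an unadjusted p of 0.05 the count was 2 of 28, against 13.2% of all genes, and DESeq2 and limma-voom called 0 of 28, where they called 2.91% and 0% of all genes. Those were HSD17B7 at 1.28 ± 0.54 (edgeR adjusted p = 0.338) and EBP at 1.15 ± 0.50 (edgeR adjusted p = 0.357). The groups did not overlap for HSD17B7, EBP and ACLY, all higher with Dex, where 17.3% of all genes were separated in that direction. None was separated in the other direction, where 7.64% were. With only these 4 libraries and the replicate block 0 of 28 passed, where 0.0361% of all genes did.

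The median of the 28 was 0.45, beside 0.13 over all genes, and it was negative when 1 library was left out. Without P300 Dex 2 it was -0.44, beside 0.00 over all genes, and without P300 EtOH 1 it was 0.11, beside 0.73. Within number 1, 9 of 28 genes were higher with Dex, against 52.1% of all genes, and within number 2 it was 24 of 28, against 61.8%. Without P300 EtOH 1, MSMO1 at -1.89 and STARD4 at 2.64 passed (edgeR adjusted p = 0.0220 and 0.0190), with 91 and 10 counts for them in P300 EtOH 2, then the only library of its group, and 11.2% of all genes passed in this setting. In the interaction, none of the 28 passed, where 0% of all genes did, and 0 of 28 had an unadjusted p under 0.05, against 8.73% of all genes. DESeq2 and limma-voom again called 0 of 28, where they called 0.672% and 0% of all genes. HSD17B7 had the smallest p of the interaction, at 1.42 ± 0.67 (edgeR adjusted p = 0.598). The median of the 28 was 0.35, beside 0.14 over all genes, and it was -0.48 without P300 Dex 2, beside 0.03. Without P300 EtOH 1, MSMO1 at -2.33 and STARD4 at 2.45 passed (edgeR adjusted p = 0.0284 and 0.0476), 2 of 28 where 6.56% of all genes did.

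**Figure D4:**
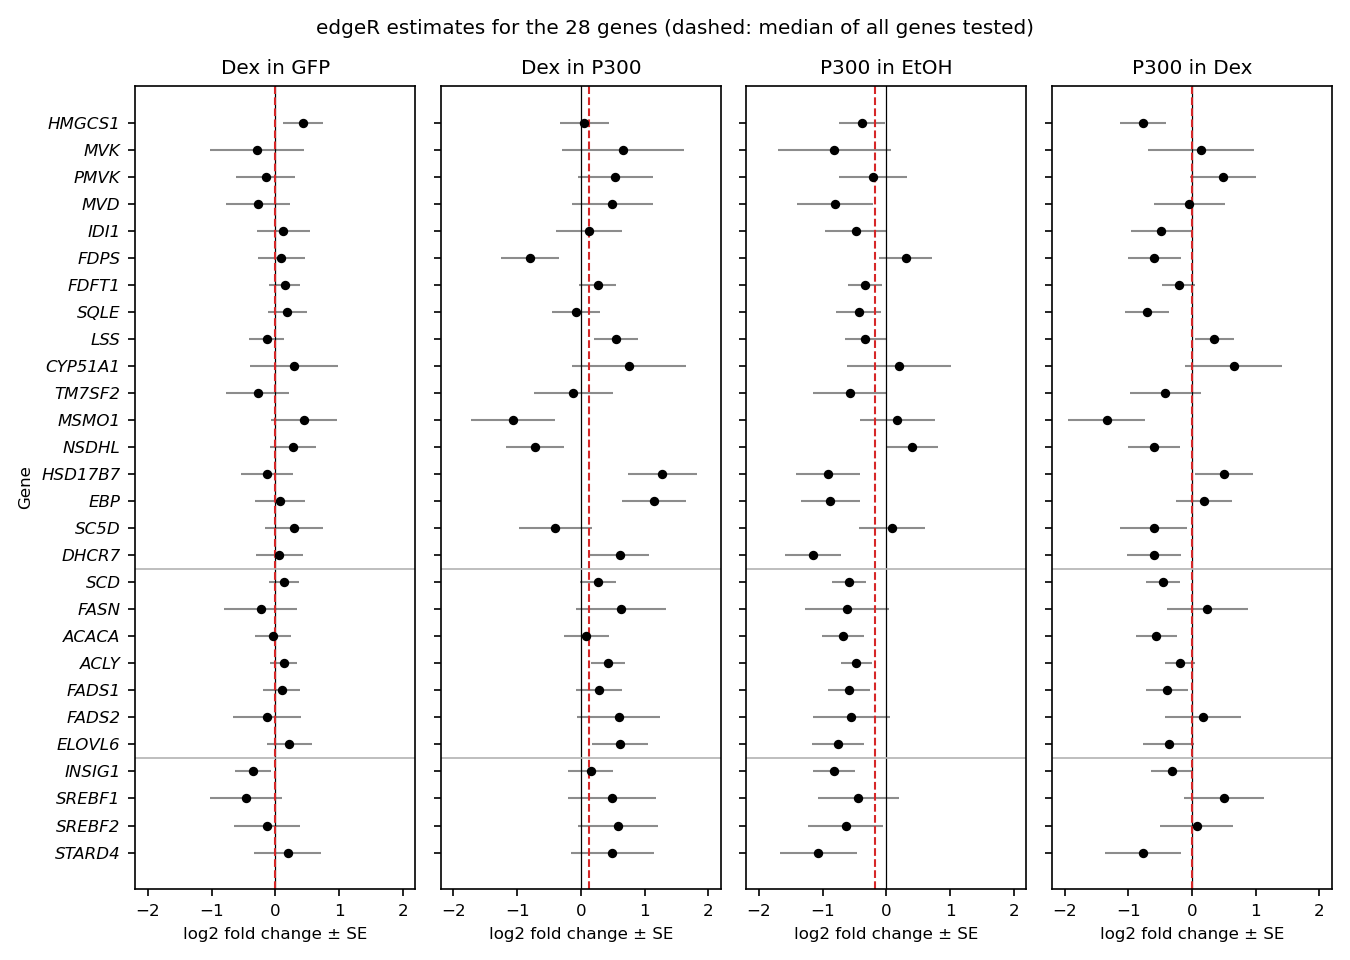
Log2 fold change ± SE from edgeR (horizontal axes) for each of the 28 genes (vertical axis, by role) in the 4 comparisons, with the median of all genes tested as a dashed line. In EP300 against GFP without hormone 23 of 28 points lie below 0, where 42.9% of all genes had positive estimates, with DHCR7 at -1.14. In Dex against EtOH in control cells the points lie around 0 with a median of 0.08.

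The libraries labelled P300 differed widely among themselves in these genes. In P300 Dex, 23 of the 28 were higher in library 2 than in library 1, against 49.6% of all genes, with a median difference of 0.69 on the log2 scale beside 0.00 over all genes. In P300 EtOH it was 19 of 28, against 37.9% of all genes, with a median difference of 0.47 beside -0.28. Both P300 libraries of number 1 were below all 6 GFP libraries for 19 of the 28, where 26.9% of all genes were, and for no gene were both above, where 20.9% of all genes were. P300 Dex 2 was above all 6 GFP libraries for 10 of the 28 (MVK, PMVK, LSS, CYP51A1, HSD17B7, EBP, FASN, FADS2, SREBF1 and SREBF2), where 31.1% of all genes were. The libraries of number 1 held the largest shares of EP300 counts, 28.6% and 28.8%, and P300 Dex 2 the smallest of the 4, 2.42%. The part of that share in these levels was not tested.

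Outside the 28, a list of 34 further genes of the pathway was followed: 5 of sterol and isoprenoid synthesis, 6 that control SREBP, 9 of LXR signalling and sterol movement, and 14 of fatty acid metabolism. None of the 34 passed in any of the 4 comparisons or in the interaction with edgeR on 10 libraries or with limma-voom. DESeq2 called 2 of 34 for EP300 without hormone, where it called 13.2% of all genes, 1 of 34 for EP300 with Dex, where it called 3.75%, and 0 in the others. With only the libraries compared and the replicate block, 1 of 34 passed for Dex in control cells, where 1.66% of all genes did. The same fit called 1 of 34 for EP300 without hormone, where 3.43% of all genes passed. It called 0 for EP300 with Dex and for Dex in cells with EP300. The median estimate of the 34 in the fit of 10 libraries was 0.12 for Dex in control cells and -0.03 for EP300 without hormone. It was -0.16 for EP300 with Dex, -0.04 for Dex in cells with EP300 and -0.09 for the interaction.

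For Dex in control cells, ACSL1, an acyl-CoA synthetase, was at 17.1, 15.2 and 14.1 CPM in GFP EtOH and 32.1, 29.3 and 22.5 CPM in GFP Dex. The groups did not overlap, where 4.14% of all genes were separated in that direction, and the estimate was 0.85 ± 0.36 (edgeR adjusted p = 1). With only these libraries and the replicate block, ACSL1 rose by a log2 fold change of 0.84 ± 0.13 (edgeR adjusted p = 0.0048), where 1.66% of all genes passed. Its relative ACSL3 was at 0.39 ± 0.24 (edgeR adjusted p = 1). For EP300 without hormone, LPCAT3, an LXR target that remodels phospholipids, was at -1.12 ± 0.34 (edgeR adjusted p = 0.0879), and ABCG1, a sterol exporter and LXR target, at 1.38 ± 0.46 (edgeR adjusted p = 0.0994). These were the 2 genes that DESeq2 called, at -1.03 and 1.51 (DESeq2 adjusted p = 0.006 and 0.0217). ABCG1 was at 7.95, 15.6 and 6.58 CPM in GFP EtOH and at 25.6 and 26.8 CPM in P300 EtOH. These groups did not overlap, where 12.3% of all genes were separated in that direction. ABCA1, the other main sterol exporter, was named after its values were seen and was at 0.73 ± 0.53 (edgeR adjusted p = 0.416) in the fit of 10. With only the libraries compared and the replicate block it was higher with EP300, by 0.96 ± 0.25 (edgeR adjusted p = 0.0083), where 3.43% of all genes passed.

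For EP300 with Dex, TMEM97, a sterol-regulated membrane protein, was at -1.18 ± 0.34 (edgeR adjusted p = 0.206) and NPC2, a lysosomal cholesterol carrier, at -1.25 ± 0.42 (edgeR adjusted p = 0.256). TMEM97 was at 39.0, 56.7 and 43.4 CPM in GFP Dex and at 15.3 and 25.6 CPM in P300 Dex. These groups were without overlap, where 18.3% of all genes were separated in that direction. TMEM97 was the gene that DESeq2 called, at -1.10 (DESeq2 adjusted p = 0.0172). For Dex in cells with EP300, NPC2 was at -0.99 ± 0.45 (edgeR adjusted p = 0.373) and LBR, a lamin receptor with sterol reductase activity, at -0.82 ± 0.40 (edgeR adjusted p = 0.416). In the interaction, LBR was at -0.99 ± 0.52 (edgeR adjusted p = 0.652) and GPAM, a glycerol phosphate acyltransferase, at -1.13 ± 0.67 (edgeR adjusted p = 0.729).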

How the data were processed

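RNA-seq was measured in 10 libraries of sorted A549 cells. The authors deposited raw counts per gene, whole numbers for 25538 genes per the file headers. The submitters' processing notes name the build GRCh37 and, with no role given, DESeq2 1.10.1, HTSeq 0.6.1p1, STAR 2.4.2a and cutadapt. The sources used here give neither the annotation nor the strand setting. A block of 10 columns of normalized values in the same table was not used. The labels' protocols describe a stranded total-RNA kit and a poly(A) kit without tying either to a library, so kit and library cannot be told apart.

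Counts were tested with edgeR 4.0.16's two-sided quasi-likelihood test in R 4.3.3 with TMM scaling, the default filter on low counts and 4 group means. P-values were adjusted by Benjamini-Hochberg over the 19433 genes tested. Levels are CPM on TMM-scaled totals, with a prior count of 2 on the log2 scale. Alternatives were the replicate number as a block, only the libraries compared with that block, DESeq2 1.42.0, limma-voom (limma 3.58.1) with library weights, other scalings, other filters, and leaving out each library. The members and lists were chosen with earlier results of these data known. Values in every library are given for genes called in a contrast, for the smallest p of each contrast, and for SREBF1, SREBF2, INSIG1, HMGCS1, FASN and SCD.

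Whether the numbers pair libraries was checked on deviations from group means. Their correlation was 0.113 to 0.601 over the 13 pairs of libraries from different groups with the same number, and -0.484 to 0.240 over the 24 with different numbers. The pairing comes from the numbers in the labels, and this check cannot decide whether it holds. Every same-numbered pair was above 0.1, but so were some pairs with different numbers. P300 Dex 1 with GFP EtOH 3 was at 0.240, above the 0.113 of GFP Dex 2 with P300 EtOH 2. Deviations from a group mean cancel out within the group, so low values between different numbers are partly forced. P300 EtOH 1 thus had 0.269 with P300 Dex 1 and -0.269 with P300 Dex 2, and the 13 pairs are not separate evidence. The replicate block therefore rests on the labels alone. No library pair within a group agreed within sampling noise.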

Additional observations from a re-analysis of the deposited data

How the results depend on the processing

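With edgeR on 10 libraries 0 of the 28 genes passed in each comparison, and this count stayed at 0 with DESeq2, limma-voom with library weights, RLE factors, library sizes alone, no filter, a filter of 5 CPM in 2 libraries, and the replicate number as a block. With only the libraries compared and the replicate block it became 2 for EP300 without hormone (FASN and FADS2) and stayed at 0 in the other 3 comparisons. With each library left out in turn it ran from 0 to 2 for Dex in cells with EP300, from 0 to 3 for EP300 without hormone, from 0 to 1 for EP300 with Dex and from 0 to 2 for the interaction, and was 0 throughout for Dex in control cells. The counts of all genes called ran from 0 to 2394, 0 to 4187, 0 to 499 and 0 to 1407 in the first 4 of these, and were 0 for Dex in control cells. With the replicate block in the fit of 10 libraries, 496 of all genes passed for EP300 without hormone in place of 541. It changed no call among the 28. No value that passed in its own setting had the opposite sign to the fit of 10 libraries. Counting every gene in every alternative, the sign changed in 13 and 32 of 504 values for Dex in control cells and Dex with EP300. It changed in 22 and 32 of 504 for EP300 without hormone and EP300 with Dex, and in 39 of 476 for the interaction. These counts include genes that passed in another alternative, so a called gene could change sign elsewhere. The cause of the sign changes was not tested. Depth limits P300 EtOH 2 most, where 3 counts correspond to 1.34 CPM against 0.217 to 0.333 CPM in the other libraries.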
